A study of Drosophila melanogaster with 30 samples.

Results

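The cytosolic ribosome of *Drosophila* is built from ribosomal RNA and a fixed set of proteins of a large and a small subunit, named RpL and RpS. All 92 protein-coding genes whose symbol begins with RpL or RpS and goes on with a digit or P, leaving out the mitochondrial mRp genes, were found among the 17713 features, and the 89 with a mean of at least 10 counts per library were kept, 53 of the large and 36 of the small subunit. The 3 left out were *RpL7-like*, *RpS28a* and *RpS28-like*, with a mean of 0.067, 0.167 and 5.37 counts. The member nearest to the minimum was *RpL10Aa*, with a mean of 28.3 counts.

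The counts came from RNA sequencing of whole last-instar larvae, 5 larvae to a pool, 5 pools to a group and 30 libraries in all. *TOR-RNAi* animals carried UAS-Tor-RNAi and *HR3-RNAi* animals carried UAS-Hr3-RNAi, in each case 1 copy. Both genotypes and the controls also carried 1 copy each of the ubiquitous driver Tub-GAL4 and of Tub-GAL80TS, a temperature-sensitive repressor of GAL4, and the controls had no RNAi transgene. All animals were raised at 18 °C, moved to 29 °C to release GAL4, kept on food with 1.2 µg/mL cholesterol, and then held for 10 h on 80 µg/mL cholesterol (refed) or on fresh food with 1.2 µg/mL (low). Nothing in the labels says that the pools of a group came from separate cultures, so the p-values measure the spread between these pools.

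Ribosomal protein genes are among the most highly transcribed genes of a growing animal, and an equal supply of all of them is needed for subunit assembly. TOR, a nutrient-responsive kinase, is known to set ribosome production through the RNA polymerases that make ribosomal RNA, through S6 kinase, which phosphorylates RpS6, and in mammals through the translation of ribosomal protein mRNAs, which start with a pyrimidine tract. HR3 is a nuclear receptor of the ROR family. The comparisons ask whether the mRNA of this gene set responds to dietary cholesterol, and whether the response or the level differs when TOR or HR3 is reduced.

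Total counts were between 19744564 and 33510753 per library, so that 3 counts, taken as the floor, were worth 0.0895 to 0.152 CPM, the usual depth-scaled read count, a figure that covers counting error only. *mTor* was at 25.5 to 33.1 CPM in refed *TOR-RNAi* pools, against 45.3 to 55.0 CPM in refed controls, and at 24.5 to 42.8 CPM against 47.5 to 54.2 CPM on low cholesterol, with no overlap in either diet. *Hr3* stayed under 1 CPM in every library, and its log2 fold change was -0.28 on low cholesterol and -0.50 after refeeding (edgeR, adjusted p = 0.916 and 0.545), so the *HR3-RNAi* labels were not checked by its counts. The summed level of *roX1* and *roX2*, non-coding RNAs made in males, ran from 3.28 to 198 CPM over the pools and was lowest in *TOR-RNAi* low replicate 1 and control refed replicate 2, at 3.28 and 10.5 CPM. Defining genes of fat body, midgut, muscle and cuticle were present in all groups, with no gene of those lists at 0 throughout.

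The members differed widely in level. Levels between genes are given per length, as the deposited FPKM. The highest was *RpL41*, the smallest protein of the large subunit (FBgn0066084, chromosome 2R from 24903416 to 24903935 in the BDGP6.54 annotation, 3 exons), with a mean of 8091 FPKM over the 30 libraries, and next came *RpS27A*, made as a fusion with ubiquitin, at 2435 FPKM. The other ubiquitin fusion, *RpL40*, was at 1229 FPKM. Of the stalk proteins that bind translation factors, *RpLP2* was at 2197, *RpLP1* at 1869 and *RpLP0* at 1209 FPKM. *RpL5* and *RpL11*, which join the 5S ribosomal RNA, were at 497 and 916 FPKM, and *RpL3*, of the peptidyl transferase region, was at 861 FPKM. In the small subunit, *RpS3* at the mRNA entry was at 1085 FPKM, *RpS2* at 1226 FPKM and *RpS6* at 1040.0 FPKM. Over the 6 groups *RpS6* averaged from 1104 FPKM (*TOR-RNAi* low, SD 138, n = 5) down to 995 FPKM (low controls, SD 79.8, n = 5), so the group means lay within the spread of the pools.

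The 78 members that are not the minor copy of a pair lay between 407 and 8091 FPKM with a median of 1225, where the median over all 11599 features with a mean of at least 10 counts was 6.41 FPKM. The 11 minor copies were lower. *RpL34a* and *RpS14b* were at 259 and 239 FPKM, *RpL24-like*, *RpS15Ab* and *RpLP0-like* between 25.7 and 73.5 FPKM, and *RpS5b*, *RpS19b*, *RpL22-like*, *RpL37-2*, *RpS10a* and *RpL10Aa* between 1.35 and 9.19 FPKM. *RpL24-like* and *RpLP0-like* encode proteins known from yeast to act in ribosome assembly rather than in the finished subunit. The lowest member, *RpL10Aa*, supplied a median of 0.0916% of the counts of its pair with *RpL10Ab*, and *RpS14b* 18.7% of those with *RpS14a*.

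The genes are short. The transcript marked as canonical in the annotation had a median of 807 nucleotides in the members, with 468 coding. The other 10936 protein-coding genes with at least 10 counts had 1880 and 1326. All transcript lengths below are of this transcript. Their 5′ untranslated region had a median of 85 nucleotides, against 139. The set is spread over the genome, with 17 genes on 2L, 21 on 2R, 14 on 3L, 22 on 3R, 1 on 4 and 14 on X, which is 15.7% on X for the members and 15.9% for the other genes. In 28 of the 89, introns or other parts of the gene held snoRNAs on the same strand, 74 in all, the guide RNAs that modify ribosomal RNA. In 28 the exons overlapped an exon of another gene, so their counts may hold reads of that neighbour.

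Together the 89 genes took up 7.97% to 9.81% of all counts of a library. In refed *TOR-RNAi* animals the share was 8.51, 9.32, 9.27, 9.58 and 9.50%, against 9.53, 8.66, 9.49, 8.50 and 9.11% on low cholesterol. In refed *HR3-RNAi* animals it was 9.29, 8.89, 8.99, 9.32 and 9.21%, against 8.49, 8.50, 7.97, 8.73 and 8.72% on low cholesterol, with no overlap. In refed controls it was 9.70, 9.35, 9.70, 8.73 and 8.90%, against 8.03, 9.15, 9.81, 9.45 and 8.99% on low cholesterol. The diets overlapped in controls and in *TOR-RNAi* animals, and each genotype overlapped the controls on both diets. A share of counts is given without a test, since it is a score over the chosen genes.

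**Figure D1:**
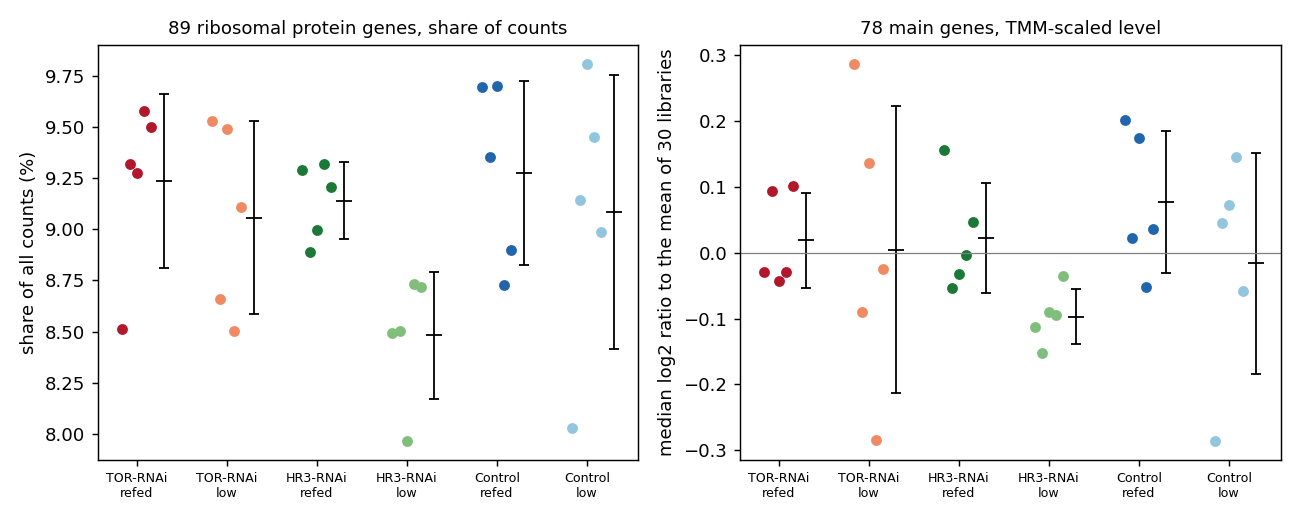
Left, share of all counts (%) on the 89 ribosomal protein genes in each library. Right, median log2 ratio of the 78 main genes to their mean over the 30 libraries, from TMM-scaled counts. Each point is 1 pool of 5 larvae, and the bar beside the points gives the mean and SD of 5 pools. The share of refed HR3-RNAi pools lay between 8.89 and 9.32%, above the 7.97 to 8.73% of HR3-RNAi pools on low cholesterol. In the other genotypes the share overlapped between diets. In the right panel the HR3-RNAi diets overlapped too, with -0.053 to 0.157 in refed and -0.152 to -0.036 in low pools.

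Within groups the members varied together. After subtraction of the group means, pairs of the 78 main members had a median Pearson's r of 0.925 over the 30 libraries (quartiles 0.880 and 0.951), against 0.226 for 528 other genes of at least 8 log2 CPM, a description over libraries that share depth and scaling. The within-group SD of log2 CPM had a median of 0.133 over the main members and 0.174 over those other genes. The share of counts on the members had r = -0.48 with the log2 *roX* level and r = 0.46 with log2 total counts, also with group means subtracted and over 30 libraries. The comparisons were also fitted with the *roX* level as a covariate, and the part of total counts in the results below was not tested.

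On refeeding of controls no ribosomal protein gene passed edgeR's quasi-likelihood test. In this comparison 0 of the 89 had a Benjamini-Hochberg adjusted p under 0.05, where 436 of 11374 genes did, 3.83%. At an unadjusted p under 0.05 there was 1 member, against 14.9% of all genes, and DESeq2 called 0, with 4.03% of all genes called higher and 2.64% lower. The median log2 fold change (refed over low) of the members was 0.09, with quartiles 0.08 and 0.11, and that of all genes tested was 0.00. Of the 89, 81 had a value above 0, the 78 main members among them, while 49.5% of all genes tested did. Well-expressed genes outside the set rose by about as much at like transcript lengths. Those with at least 1000 counts had medians of 0.08 up to 700 nucleotides, 0.09 up to 1000 and 0.08 up to 1500. Members of these lengths had 0.09, 0.10 and 0.09. Above 1500 nucleotides the other genes had 0.04. The median standard error of a member was 0.08, about the size of the median change. The median stayed above 0 in every alternative run, between 0.02 and 0.12, and was 0.02 with the *roX* level as a covariate.

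The member at an unadjusted p under 0.05 was *RpS19a* (FBgn0010412, chromosome X from 16637894 to 16639249), a small-subunit protein needed for ribosomal RNA maturation. It had 1094, 984, 1117, 970.1 and 1000.3 CPM in refed controls, against 771, 947, 972, 1038 and 902 CPM on low cholesterol. The groups overlapped, and the log2 fold change was 0.16 (SE 0.07, edgeR, adjusted p = 0.296). *RpS6*, whose phosphorylation is the usual readout of TOR activity, had 1375, 1213, 1365, 1141 and 1369 CPM in refed controls, against 1019, 1239, 1283, 1312 and 1136 CPM on low cholesterol. Its log2 fold change was 0.12 (SE 0.07, edgeR, adjusted p = 0.496), so a change in its mRNA was not detected.

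In *HR3-RNAi* animals refeeding raised 1 member, *RpL41*, and the other 88 did not pass the test. Of 11615 genes tested, 400 were called, 3.44%, and 184 of them upward, 1.58%. *RpL41* had 3043, 2680.2, 2829.9, 2728 and 2896 CPM in refed *HR3-RNAi* pools, against 1869, 1899, 1975, 2431 and 2392 CPM on low cholesterol. All refed pools lay above all pools on low cholesterol. The log2 fold change was 0.43 (SE 0.09, edgeR, adjusted p = 0.0201). Without *HR3-RNAi* refed replicate 3 it was 0.43 with an adjusted p of 0.0576, and without *HR3-RNAi* low replicate 3 it was 0.40 with 0.0505. Leaving out either pool thus removed the call, at a log2 fold change of similar size. In a fit of all 30 libraries the adjusted p was 0.226, and over the 19 alternatives of this result it ran from 0.000114 to 0.226.

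The members' median log2 fold change in *HR3-RNAi* animals was 0.12, with quartiles 0.08 and 0.16, or 8.98% at the median, against 0.00 for all genes tested. The 84 members above 0 included the 78 main ones, where 50.0% of all genes tested lay above 0. At an unadjusted p under 0.05, 41 members were higher and 0 lower, 23 of the 53 of the large subunit and 18 of the 36 of the small, where 7.23% of all genes tested were higher at that limit and 14.6% differed in either direction. The refed and low pools did not overlap in 19 members, all higher after refeeding, against 2.55% of all genes tested. DESeq2's Wald test called 19 members, all higher, with 2.83% of all genes called higher. The main members varied together within groups (median r of 0.925), so the members in these counts are not independent of each other. The medians of the large and the small subunit were both 0.12. The median was above 0 in each alternative, between 0.06 and 0.14.

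The highest values after *RpL41* were those of *RpL29* and *RpS21*, named here after their values were seen, at 0.31 and 0.27 (SE 0.09 and 0.08, edgeR, adjusted p = 0.120 and 0.0825). Stalk protein genes *RpLP0*, *RpLP1* and *RpLP2* were at 0.08, 0.12 and 0.13, and the ubiquitin fusions *RpS27A* and *RpL40* at 0.13 and 0.12. The lowest of the main members were *RpL3* and *RpL5*, both at 0.02. None of these 9 passed edgeR's test, and DESeq2 called *RpL29* (0.30, adjusted p = 0.0344) and *RpS21* (0.27, adjusted p = 0.0134). Without *HR3-RNAi* low replicate 5, 5 members were called higher, *RpL29* (0.39, adjusted p = 0.0233) and *RpS21* (0.33, adjusted p = 0.0250) among them.

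**Figure D2:**
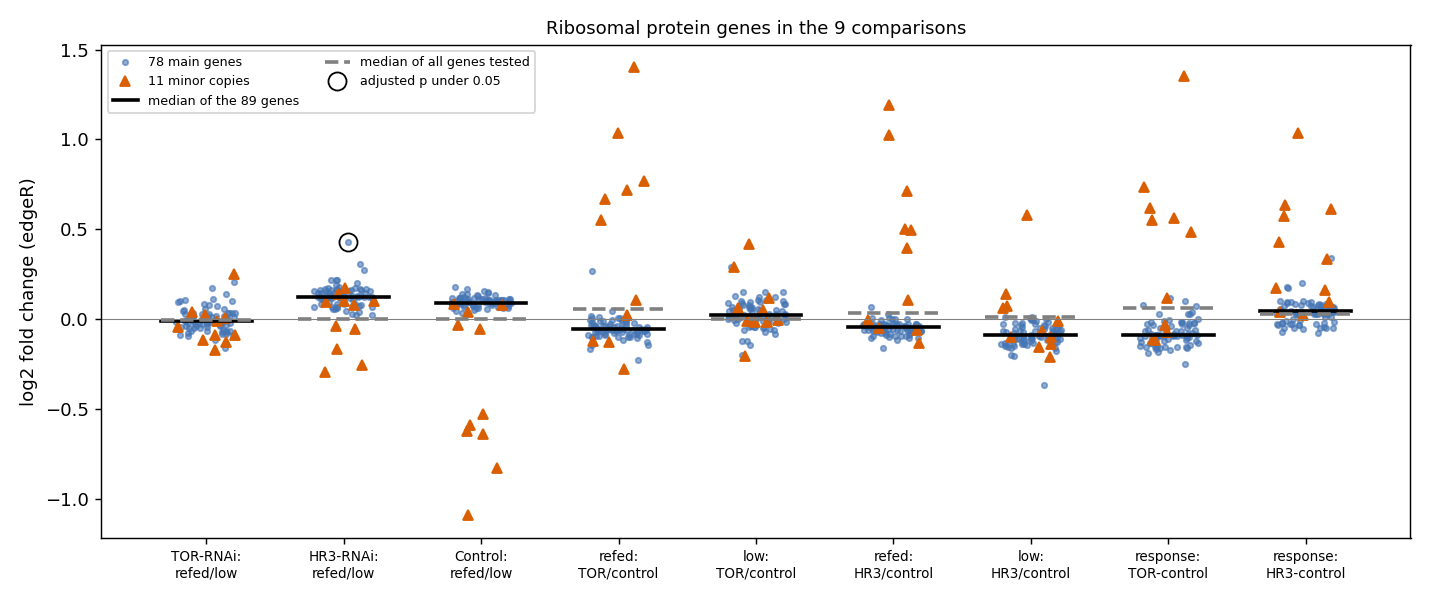
Log2 fold change (edgeR) of the 89 ribosomal protein genes in the 9 comparisons, with the 78 main genes as points and the 11 minor copies as triangles. Black bars give the median of the 89 genes and dashed grey bars that of all genes tested, and the circled point is the only call, *RpL41* on refeeding of HR3-RNAi animals at 0.43.

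Transcript length moved with this result, though not with this result alone. Spearman's rho of length with log2 fold change on refeeding was -0.01 for the members in controls and -0.48 in *TOR-RNAi* animals. For other genes with a mean of at least 1000 counts it was -0.19 and 0.16, and in *HR3-RNAi* animals -0.24. In *HR3-RNAi* animals longer members had lower log2 fold changes (Spearman's rho = -0.39 over 89 genes, which are not independent replicates), and the 28 members of up to 700 nucleotides had a median of 0.13, the 31 of up to 1000 nucleotides 0.13 and the 27 of up to 1500 nucleotides 0.08. Other genes with a mean of at least 1000 counts showed the same order, with medians of 0.13 (171 genes), 0.06 (273 genes), 0.01 (455 genes) and, above 1500 nucleotides, -0.03 (2201 genes). *RpL41* and *RpL29*, with transcripts of 320 and 389 nucleotides, are among the shortest members. With an offset per library fitted on transcript length over genes outside the set, an alternative chosen after the data were seen, the members' median was 0.06, *RpL41* was at 0.25 (adjusted p = 0.0544) and 0 members were called, with 1.62% of all genes called higher. Midgut marker genes summed to 10876 to 14353 CPM in refed and 8131 to 11278 CPM in low *HR3-RNAi* pools, and salivary glue genes to 932 to 1293 CPM and 339 to 3102 CPM. Larval cuticle genes summed to 8622 to 11311 CPM and 7356 to 12271 CPM. In controls midgut markers were at 12690 to 14068 CPM in refed and 9967 to 13108 CPM in low pools. Cuticle markers were at 6868 to 8552 CPM and 9878 to 11367 CPM there, with no overlap. The part of midgut, glue or cuticle RNA in the members' values was not tested. In whole animals, fewer cells of a type and less RNA per cell cannot be told apart.

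**Figure D3:**
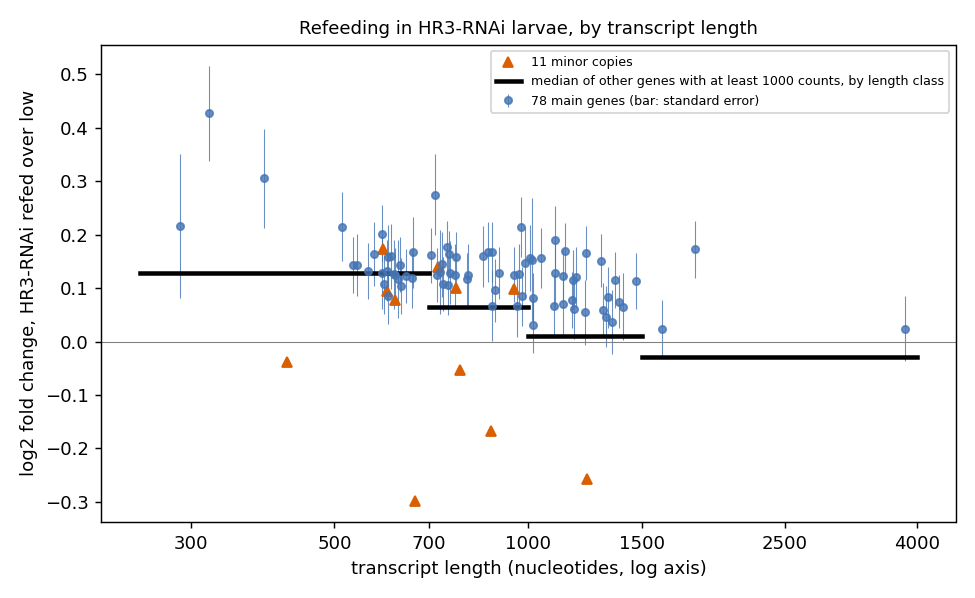
Log2 fold change of each ribosomal protein gene on refeeding of HR3-RNAi animals (vertical axis) against the length of its canonical annotated transcript (horizontal log axis). Thin bars are standard errors, and thick black lines are medians of other genes with at least 1000 counts, 0.13, 0.06, 0.01 and -0.03 from the shortest to the longest class.

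Whether the *HR3-RNAi* response differed from that of controls was tested as an interaction. The median difference of the members was 0.04, and 0 were called of 89, with 0% of the 12178 genes tested called. At an unadjusted p under 0.05 there were 0 members and 818 genes, 6.72%, and DESeq2 called 0 members, with 0.0493% of all genes called higher and 0.205% lower. For *RpL41* the difference was 0.34 (SE 0.23, adjusted p = 0.846). Its levels on low cholesterol were 1869 to 2431 CPM in *HR3-RNAi* pools and 1803 to 3326 CPM in controls, a range in which control low replicate 1 was the lowest. A larger response in *HR3-RNAi* animals than in controls was thus not shown.

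In *TOR-RNAi* animals refeeding changed 0 of the 89 members, with 65 of 11569 genes called, 0.562%, 0 members at an unadjusted p under 0.05 (8.23% of all genes) and 0 called by DESeq2, which called 1.53% of all genes higher and 0.890% lower. The median log2 fold change was -0.01, with 37 members above 0 against 49.4% of all genes, and it changed sign among the alternatives, from -0.06 to 0.06. The standard error of a member had a median of 0.10, larger than in *HR3-RNAi* animals at 0.06. *RpS6* was at 1198, 1297, 1183, 1182 and 1324 CPM in refed *TOR-RNAi* pools, against 1513, 1200.4, 1449.8, 1062 and 1282 CPM on low cholesterol. The refed pools lay inside the range of the low ones. Against the response of controls, the members' median difference was -0.09, 0 of 89 and 0% of all genes were called, and 1 member, *RpS2*, was at an unadjusted p under 0.05 (1111 of all genes tested, 9.12%). DESeq2 called 0 members, with 0.205% of all genes called higher and 0.772% lower. With *roX* as a covariate that median was 0.06, so its direction depends on the fit.

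Between *TOR-RNAi* animals and controls edgeR called no member, while other fits called some. On low cholesterol, 0 of 89 members were called by edgeR, where 452 of 12178 genes were, 3.71% (1.87% higher and 1.84% lower). The members' median log2 fold change (*TOR-RNAi* over control) was 0.02. After refeeding, 0 of 89 were called where 2158 of 12178 genes were, 17.7%, 966 higher (7.93%) and 1192 lower (9.79%). The median was -0.06 for the members and 0.06 for all genes tested. At an unadjusted p under 0.05 there was 1 member on low cholesterol, against 15.0% of all genes, and 3 after refeeding, against 31.4%. DESeq2 called 1 higher on low cholesterol (3.24% of all genes), and after refeeding 1 higher (10.1%) and 1 lower (11.2%). Both medians changed sign among the alternatives, from -0.05 to 0.12 on low cholesterol and from -0.09 to 0.11 after refeeding. The *roX* level was 47.7 to 191 CPM in refed *TOR-RNAi* pools and 10.5 to 167 CPM in refed controls.

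These counts depended on how transcript length was treated. Among genes outside the set of up to 700 nucleotides with at least 1000 counts (171 genes), the median was -0.20 after refeeding and -0.15 on low cholesterol, against -0.06 and -0.01 for the 28 members of that length. With the length offset, chosen after the data were seen, 20 members were called higher in *TOR-RNAi* animals after refeeding (10.4% of all genes called higher) and 15 on low cholesterol (2.96%), with medians of 0.11 and 0.12. *RpS14a* was among them in both diets, *RpS6*, *RpL11* and *RpLP2* on low cholesterol, and *RpS27A*, *RpLP1* and *RpLP2* after refeeding. Which of the treatments of length suits these libraries was not tested.

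*RpS14a* (FBgn0004403, chromosome X from 7933742 to 7934677), a small-subunit protein of the decoding platform, was the member at an unadjusted p under 0.05 on both diets. It had 751, 818, 726, 646 and 838 CPM in refed *TOR-RNAi* pools, against 689, 602, 661, 569 and 619.8 CPM in refed controls. On low cholesterol it had 991, 619, 832, 547 and 672 CPM, against 505, 615, 626, 673 and 574 CPM. The groups overlapped in both diets on this scale. The log2 fold change was 0.27 after refeeding (SE 0.11, edgeR, adjusted p = 0.0953) and 0.29 on low cholesterol (SE 0.11, adjusted p = 0.173), and the member did not pass the test in either. DESeq2 called it after refeeding and on low cholesterol (adjusted p = 0.0330 and 0.0325), and so did edgeR with total counts (0.00230 and 0.0324). With *roX* as a covariate it was called after refeeding (0.36, adjusted p = 0.000538) and not on low cholesterol (0.15, 0.233). Without *TOR-RNAi* low replicate 4 it was called on low cholesterol, at 0.39 (adjusted p = 0.0389), and without *TOR-RNAi* low replicate 1 it was at 0.16 (adjusted p = 0.495).

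Its neighbour *RpS14b* begins on the same strand after the end of *RpS14a* and encodes the same protein length, 453 coding nucleotides in each, so reads could be split between the pair. *RpS14b* was at 0.02 after refeeding and 0.06 on low cholesterol. Its share of the pair's counts, in which no library scaling enters, was 16.6, 16.4, 17.3, 17.5 and 15.0% in refed *TOR-RNAi* pools, against 19.8, 18.6, 18.8, 19.5 and 18.1% in refed controls, with no overlap. The exact permutation test gave p = 0.00794, the smallest that 5 against 5 allow, two-sided, and an adjusted p of 0.204 over the 77 tests of 11 pairs in 7 comparisons. On low cholesterol the share was 14.7 to 18.6% in *TOR-RNAi* pools and 17.9 to 19.4% in controls (exact p = 0.0317, adjusted p = 0.489).

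*RpS2* (FBgn0004867, chromosome 2L from 9896265 to 9897552), also of the decoding site, had the lowest adjusted p of the members after refeeding. It had 1356, 1441, 1281, 1445 and 1445 CPM in refed *TOR-RNAi* pools, against 1774, 1527, 1708, 1403 and 1737 CPM in refed controls. The *TOR-RNAi* pools lay below all controls but control refed replicate 4. The log2 fold change was -0.23 (SE 0.08, edgeR, adjusted p = 0.0566). It was called without *TOR-RNAi* refed replicate 4 (-0.25, adjusted p = 0.0404), control refed replicate 2 (-0.26, 0.0465) or control refed replicate 4 (-0.28, 0.0228). It was also called by DESeq2 (-0.21, adjusted p = 0.0128), by edgeR with DESeq2's size factors (-0.21, 0.0327) and with total counts (-0.17, 0.0459), and with the length offset it was at -0.10 (0.180). On low cholesterol *RpS2* was at 0.02, and *RpS6* was at -0.06 after refeeding and 0.12 on low cholesterol (adjusted p = 0.607 and 0.572).

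**Figure D4:**
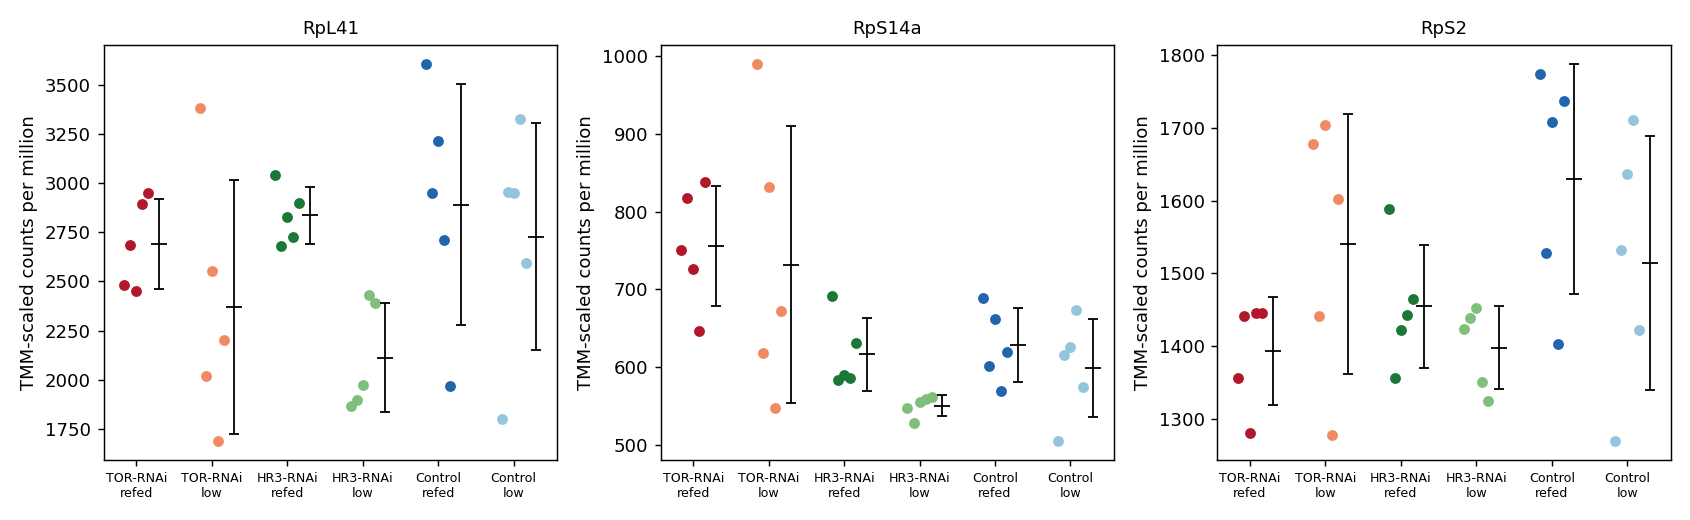
TMM-scaled CPM of *RpL41*, *RpS14a* and *RpS2* in each library. Points are pools of 5 larvae, and the bar beside them is the mean and SD of 5 pools. *RpL41* was between 2680.2 and 3043 in refed and between 1869 and 2431 in low HR3-RNAi pools. *RpS14a* reached 838 in refed TOR-RNAi pools against 689 in refed controls, and these groups overlapped. The vertical axes do not start at 0.

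Genes that make or use ribosomes were counted beside the set, against 7.93% of all genes called higher and 9.79% lower in *TOR-RNAi* animals after refeeding. After refeeding, 49 of 70 mitochondrial ribosomal protein genes, taken by their mRp symbols, were lower in *TOR-RNAi* animals than in controls and 0 higher, with a median of -0.40 over the 70. Of 38 translation factor genes 13 were lower and 1 higher, with a median of -0.12. The lower ones included *eEF1delta*, an elongation factor subunit (-0.56, adjusted p = 0.000301), and *pAbp*, which binds poly(A) tails (-0.31, adjusted p = 0.00155). The higher one was *Thor*, the 4E-BP, which is itself restrained by TOR (0.71, adjusted p = 0.0378). Of 35 ribosome biogenesis genes 4 were lower and 0 higher, among them *Polr1E*, a subunit of RNA polymerase I (-0.64, adjusted p = 0.00192). Of 20 genes of TOR signaling to ribosomes, 6 were higher and 4 lower, the RNAi target *mTor* among the lower ones. *Thor*, *eIF4E1* and *eIF4G1* are in this list and in that of the translation factors. In the same fit the cytosolic set had 0 of 89 called with a median of -0.06, and no test of the difference between the lists was run.

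On low cholesterol, where 1.84% of all genes were lower, the *TOR-RNAi* counts were 3 lower of 70 mitochondrial ribosomal protein genes, 0 of 38 translation factors and 1 lower of 35 ribosome biogenesis genes, *Polr1E* at -0.66 (adjusted p = 0.00338). On refeeding within a genotype, 0 genes of these lists were called in any genotype, nor any of the TOR signaling list. Medians in controls were 0.08 for the mitochondrial list, 0.09 for translation factors and 0.08 for biogenesis. Above 0 were 64 of 70, 36 of 38 and 31 of 35 genes. In *HR3-RNAi* animals the medians were -0.04, 0.01 and 0.10, with 23, 26 and 31 genes above 0. In *TOR-RNAi* animals they were -0.14, -0.04 and 0.04, with 3, 12 and 24 genes above 0. Of all genes tested, 49.4% to 50.0% lay above 0. In *HR3-RNAi* animals on low cholesterol, *mRpL37* was higher and *Polr1E* lower than in controls. Of all genes, 1.30% were called higher and 1.31% lower there. After refeeding, 1 of the 70 mitochondrial genes was higher and 3 lower, with *Polr1E* and *pAbp* lower. In that comparison 1.40% of all genes were called higher and 2.57% lower. The median over the 70 was -0.15 on low cholesterol and -0.25 after refeeding. On each diet 2 of them lay above 0, against 52.1% and 56.0% of all genes. At an unadjusted p under 0.05 (edgeR), 36 were lower and 1 higher after refeeding, against 9.35% and 7.44% of all genes.

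Between *HR3-RNAi* animals and controls edgeR called no member, and DESeq2 called 1. On low cholesterol 0 of 89 were called by edgeR, where 318 of 12178 genes were, 2.61% (1.30% higher and 1.31% lower), and after refeeding 0 of 89, where 484 were, 3.97% (1.40% higher and 2.57% lower). DESeq2 called 1 lower on low cholesterol, *RpL24-like* (1.95% of all genes), and 0 after refeeding, where it called 2.27% of all genes higher and 4.39% lower. The median log2 fold change was -0.09 on low cholesterol, where 8 of 89 members lay above 0 against 52.1% of all genes, and it stayed below 0 in each alternative, between -0.16 and -0.02. Members of up to 700, 1000 and 1500 nucleotides had medians of -0.10, -0.09 and -0.07 there. Other genes of these lengths with at least 1000 counts had -0.10, -0.08 and -0.02, and longer ones 0.04. After refeeding the median of all members was -0.05, with 12 of 89 above 0 against 56.0%, and it turned to 0.04 with *roX* as a covariate and 0.02 with the length offset. By the same 3 length classes the members then had -0.04, -0.04 and -0.06, and the other genes -0.05, -0.10 and -0.07. At an unadjusted p under 0.05, 3 members were lower on low cholesterol, against 12.5% of all genes in either direction, and 0 after refeeding, against 16.8%. The 3 were *RpL41* at -0.37, *RpL24-like* at -0.21 and *RpS3* at -0.18 (SE 0.16, 0.07 and 0.08, edgeR, adjusted p = 0.327, 0.145 and 0.344). Without control low replicate 1 *RpL24-like* was called, at -0.27 (adjusted p = 0.0447). The lower level on low cholesterol and the *HR3-RNAi* diet difference share the same 5 *HR3-RNAi* low pools. *RpS3* was at 1120.1, 1123, 1103, 1111 and 1089.9 CPM in them, against 1028, 1294, 1312, 1445 and 1194 CPM in low controls, so control low replicate 1 lay below all of them and the other 4 above.

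The minor copies differed in spread. *RpL34a*, *RpS14b*, *RpL24-like*, *RpS15Ab* and *RpLP0-like* varied by less than a factor of 2 over the 30 libraries, with *RpL34a* between 139.96 and 180.2 CPM and *RpS15Ab* between 20.4 and 29.2 CPM. *RpS5b*, *RpL22-like*, *RpS19b*, *RpL37-2*, *RpS10a* and *RpL10Aa* ranged from near 0 to many times their lowest level. These 6 are copies of ubiquitous genes and several of them are known from *Drosophila* as expressed in the germ line, *RpL22-like* in the testis and *RpS5b* and *RpS19b* in the ovary. CPM of these copies here and in the paragraphs on *roX* that follow, and CPM of *roX* and of marker lists throughout, are counts scaled by all counts of the library, without TMM.

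The number of males among the 5 larvae of a pool is not in the labels, and the *roX* level was used as its measure. With group means subtracted, the log2 level of each of these 6 copies went with log2 *roX* over the 30 libraries. Pearson's r was 0.91 for *RpS19b*, 0.89 for *RpL37-2*, 0.88 for *RpS5b*, 0.88 for *RpL22-like*, 0.86 for *RpS10a* and 0.82 for *RpL10Aa*. Spearman's rho was between 0.78 and 0.87, and each permutation p for r was 1e-05, the smallest that 100000 resamples can give, with an adjusted p of 1.83e-05 over the 11 copies tested. For rho the permutation p was 1e-05, or 6e-05 for *RpL10Aa*. When the 2 pools with the most extreme *roX* values were left out, r was between 0.72 and 0.84. For the other 5 copies r lay between -0.16 and 0.24 (permutation, adjusted p from 0.44 to 0.749).

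In the pools with the least *roX*, *TOR-RNAi* low replicate 1 and control refed replicate 2, *RpL37-2* and *RpL10Aa* had 0 counts, which is under the floor of 3 counts. *RpL22-like* had 1 and 2 counts, *RpS10a* 1 and 4, *RpS19b* 5 and 6, and *RpS5b* 41 and 25, where the medians over all libraries were 226, 52, 160 and 247 counts. *RpL22-like* was at 0.0496 and 0.0679 CPM there and at 1.24 CPM or more in the other 28 libraries. In controls, where *roX* was 10.5 to 167 CPM in refed pools and 64.3 to 198 CPM in low ones, the log2 fold changes on refeeding ran from -1.09 for *RpL10Aa* to -0.53 for *RpS10a*, and none passed the test (edgeR, adjusted p from 0.603 to 0.711). Summed testis marker genes were at 6.14 to 389 CPM in those refed and 81.8 to 564 CPM in those low pools. Ovary and female germline markers, 5 of 7 of which were found, were at 57.5 to 198 CPM in the refed and 42.6 to 59.9 CPM in the low control pools.

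**Figure D5:**
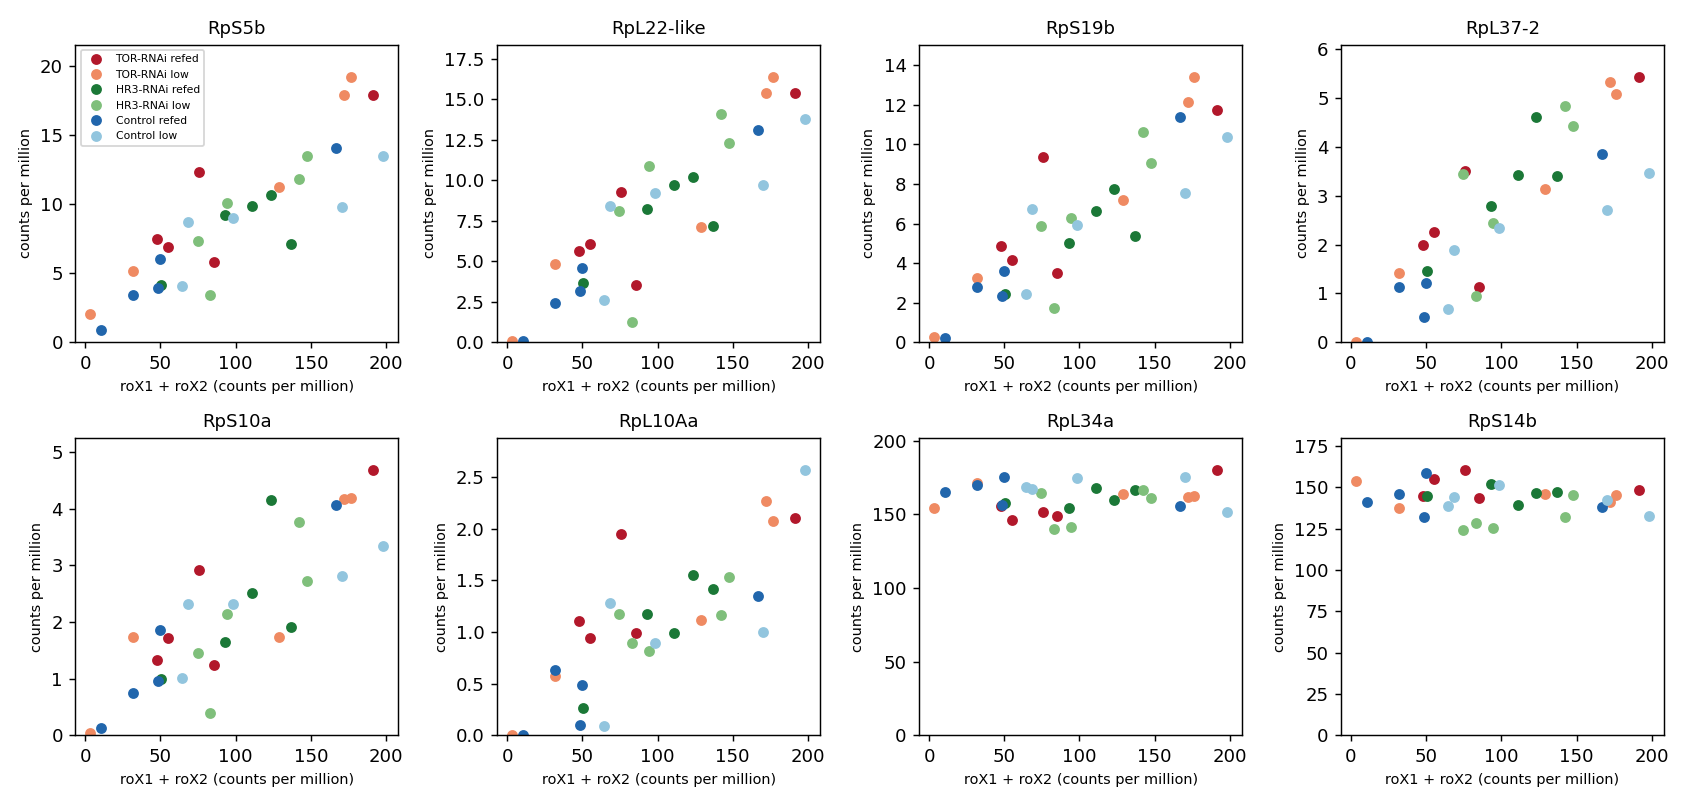
CPM of 8 minor copies (vertical axes) against the summed *roX1* and *roX2* CPM (horizontal axes) in the 30 libraries, coloured by group. The first 6 panels show the copies that went with *roX* (r of 0.82 to 0.91 within groups), and the last panels show *RpL34a* and *RpS14b*, with r of 0.16 and -0.16.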

How the data were processed

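RNA was measured in 30 libraries of whole last-instar larvae, 5 pools in each of 6 groups taken from the sample labels. The authors deposited, for each of 17713 features, the count of reads and an FPKM value. Their processing notes name HISAT2, StringTie, featureCounts, DESeq2 and edgeR, and the genome build and the strand setting of the counting are not given in the sources used here. The deposited FPKM were the deposited count per length times 1 factor per library. Gene symbols and coordinates came from the BDGP6.54 annotation, and 5 members with older IDs were named through the study's table of IDs.

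The counts were tested with edgeR 4.0.16 in R 4.3.3 (quasi-likelihood, TMM scaling, filterByExpr) with Benjamini-Hochberg adjustment over all genes tested and a threshold of 0.05. Diets were compared in the 10 libraries of a genotype, and genotypes and interactions in a fit of all 30. CPM per pool are scaled by the TMM factors of that fit, except those of *roX*, of marker lists and of the minor copies set against *roX*, which are relative to all counts of the library. The fits were tested on simulated data. Alternatives were DESeq2 1.42.0, other scalings, no filter, the *roX* level as covariate, a replicate block, other sets of libraries, leaving out each library, and, chosen after seeing the data, a transcript length offset and leaving out the 2 libraries with the least *roX*. Correlations with *roX* used log2(CPM + 0.5), in 100000 permutations within groups. No 2 libraries of a group were alike within sampling noise.

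The members and gene lists were chosen with earlier results of these data known. Named are *RpS6*, *RpL3*, *RpL5*, *RpL11*, *RpL40*, *RpL41*, *RpS2*, *RpS3*, *RpS27A* and the stalk genes, the paralog pairs, up to 3 called members in each direction, and the highest and lowest by FPKM. Genes named outside this rule were chosen after their values were seen.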

Additional observations from a re-analysis of the deposited data

Results flagged for a closer look

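In 7 of 222 groups of 5 pools, 1 pool lay apart from the other 4 by Dixon's criterion, where chance gives about 1 in 20, or 11.1. The share of counts on the ribosomal protein genes was 8.51% in *TOR-RNAi* refed replicate 1 and 9.27 to 9.58% in the other pools of that group. The *roX* level was 191 CPM in *TOR-RNAi* refed replicate 4, against 47.7 to 85.4 CPM in the others, and 167 CPM in control refed replicate 4, against 10.5 to 49.9 CPM.

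In *HR3-RNAi* low replicate 5, *RpL40* was at 823 CPM, against 758 to 772 CPM in the other 4 pools. In the same pool *RpL10Ab*, a large-subunit protein, was at 1180 CPM, against 1074 to 1100.5 CPM, and *RpS15Aa*, of the small subunit, at 1039 CPM, against 874 to 917 CPM. *RpL34a*, scaled by TMM here like the other genes of this paragraph, was at 139.6 CPM in control low replicate 1. It was at 168.9 to 177.7 CPM in the others of that group.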

How the results depend on the processing

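The count of members called on refeeding of *HR3-RNAi* animals, 1, was 0 in a fit of all 30 libraries, 19 with DESeq2, 0 with the transcript length offset and 0 to 5 when 1 library was left out. For *TOR-RNAi* against control on low cholesterol the count of 0 became 1 with DESeq2, 1 with total counts, 15 with the length offset and 0 to 1 when 1 library was left out. After refeeding it became 1 with DESeq2 size factors, 2 with DESeq2's test, 1 with *roX* as covariate, 2 with total counts, 20 with the length offset and 0 to 2 when 1 library was left out. For *HR3-RNAi* against control on low cholesterol it became 1 with DESeq2, 1 with total counts and 0 to 1 when 1 library was left out. The cause of these differences was not tested. In the other 5 comparisons it stayed at 0 in every alternative run, and 6 of the 11 minor copies passed against *roX* in all 31.

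With the replicate number as a block, 1 member was called on refeeding of *HR3-RNAi* animals, *RpL41* at 0.44 (edgeR, adjusted p = 0.0482), and 0 in the other 8 comparisons. Same-numbered pools had correlations of -0.73 to 0.57, and at most 2 of 5 correlated best with their own number. Correlations of this kind cannot decide whether same-numbered pools shared a culture or a day, and the labels do not say. The standard errors of single members, 0.06 to 0.12 at the median of a comparison, limit what could be detected.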

Other observations

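Of the other pairs, *RpL24-like* supplied 6.55 to 7.41% of the counts it shares with *RpL24* in refed *TOR-RNAi* pools and 5.80 to 6.30% in refed controls. In controls on low cholesterol the share was 6.41 to 6.95%, so that refed controls lay below both without overlap (exact permutation test, p = 0.00794 each, adjusted p = 0.204 over 77 tests). The comparisons share the refed controls. *sta* and *Rack1*, which encode small-subunit proteins under other names, were called in none of the 9 comparisons, with -0.17 and -0.05 in refed *TOR-RNAi* animals against refed controls (edgeR, adjusted p = 0.151 and 0.635).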
